A study of Caenorhabditis elegans with 2 samples.

Results

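The col genes are the numbered collagen genes of Caenorhabditis elegans, most of which are taken to encode cuticle collagens. They were taken as every protein-coding gene of Ensembl release 115 (assembly WBcel235, the same coordinates as ce11) whose symbol is col- followed by a number, which gave 156 of 19973 protein-coding genes on the 6 nuclear chromosomes. What was measured around them is where an eGFP-tagged copy of the Hox factor LIN-39 was found on DNA, by chromatin immunoprecipitation and sequencing (ChIP-seq). The single group consisted of 2 biological replicates of whole second-stage (L2) larvae of mixed sex, strain OP18, which carries the insertion wgIs18 and the mutation unc-119(ed3) on chromosome III. The labels give lin-39 as the antibody in one field and eGFP-lin-39 as the target in another, and the reagent is not stated, so regions recovered through the tagged protein cannot be told apart from any recovered through untagged LIN-39. The labels give neither the promoter nor the copy number of the insertion. Untagged worms, other stages and other factors are not analysed here, so every comparison below is between the col genes and other genes of the same lists. Whole larvae mix all tissues, so a site used in few cells cannot be told apart from a site weakly used in many.

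Cuticle collagens are short secreted proteins built around Gly-X-Y repeats, stretches in which glycine recurs at regular steps. The epidermis makes them in waves ahead of each moult, and different members are used at different stages. LIN-39, the mid-body Hox protein, is known for keeping vulval precursor cells from fusing with the surrounding epidermis. The label was checked on the translated gene models: 155 of the 156 col genes encoded a run of at least 5 Gly-X-Y triplets, with a median length of 304 residues and a median glycine content of 20.8%. The exception was col-17, whose Ensembl reading frame held 0.722% glycine and no such run, while the RefSeq model of the same gene held 19.8% glycine and a longest run of 21 triplets. Protein length ran from 154 residues in col-55 to 740 residues in col-163.

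The authors deposited, for each replicate and for both together, a candidate list of 30000 regions with a signal value per region. A rank of 1 is the highest signal within 1 list. Depth is unknown from these lists, and the lists are named as holding peaks together with background. Each region was assigned to the gene whose 5′ end (the annotated start of a coding transcript) was nearest its summit, within 5000 bp. Of the 30000 regions on the list from both replicates, 27819 had such an end and 166 were nearest to a col gene. An assignment names a neighbour and does not show that the gene is regulated. Because 1 group of 2 libraries allows no test between conditions, all that follows is description, and the 95% intervals are exact Clopper-Pearson intervals that cover the counting of genes or regions only.

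No col gene had an optimal peak, and the shares of col genes with a candidate region could not be told apart from those of other genes with as much flanking sequence. Of the 156 col genes, 104 (66.7%, 95% interval 58.7 to 74.0) had at least 1 candidate region, where the share over all protein-coding genes was 66.5%. Among the strongest 5000 regions, 20 col genes had one (12.8%, interval 8.01 to 19.1), beside 18.7% of all genes. Among the strongest 2000 it was 6 (3.85%, interval 1.42 to 8.18), beside 8.13% of all genes. The authors' optimal peaks are the strongest regions of that list. Of the 156 col genes 0 had one (exact interval up to 2.34%, floor of 3 counts 1.92%), beside 1.37% of all genes. These counts stood below the all-gene shares for strong regions and at it for the full list.

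By construction, a gene with little sequence to itself can be nearest to few regions. The sequence that would be assigned to a col gene had a median of 3130 bp, against 3775 bp over all genes. The other protein-coding genes were therefore put into 10 bins of flank length, and their shares were weighted to the flank lengths of the col genes. At those rates 96.9 col genes would have a region, and 104 did. For the strongest 5000 regions the number at those rates was 23.9 and the observed count was 20, and for the strongest 2000 it was 9.83 and 6. The rate of 15.3% from like flanks lay inside the interval of the observed 12.8%. Taking only the outermost 5′ end of each gene gave 25 col genes with a region among the strongest 5000, and 25.1 at the rates of like flanks.

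**Figure D1:**
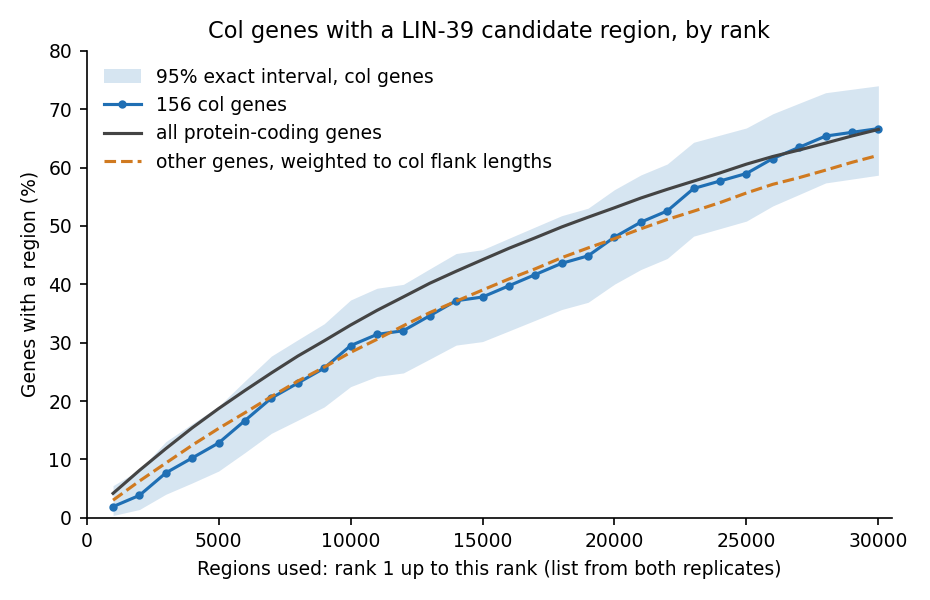
Share of genes (vertical axis, %) with at least 1 assigned region when the list from both replicates is used from rank 1 up to the rank on the horizontal axis; blue points are the 156 col genes and the band their 95% exact interval, the solid line all protein-coding genes, and the dashed line other genes weighted to the col genes' flank lengths. At rank 5000 the 3 values are 12.8%, 18.7% and 15.3%, and at rank 30000 the col genes (66.7%) meet the all-gene line (66.5%).

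The 52 col genes without any region on the list from both replicates had shorter flanks (median 2350.5 bp) than the 104 with one (3403 bp). Among all genes the same 2 medians were 2525.5 and 4564 bp. Without a region there were, among others, col-2, col-7, col-9, col-12, col-35, col-37 and col-120. Some of the 52 had one on a replicate's own list, such as col-37 (ranks 23526 and 12013 in replicates 1 and 2) and col-51 (rank 2774 in replicate 2). By chromosome, 17 of the 52 were on IV, which holds 41 col genes, and 14 on V, which holds 31. With a region were 58.5% of the col genes on IV, beside 64.5% of all genes there, and 54.8% on V, beside 64.98%. Of the genes with a region, 58 had 1, 35 had 2 and 11 had more. Counting genes without one, the median was 1 region per gene, with quartiles of 0 and 2, for col genes and for all genes. Best ranks were spread over the whole list, with 26 genes past rank 5000 and up to 10000, 29 past 10000 and up to 20000, and 29 past 20000. Up to rank 10000, 29.5% of col genes had a region, beside 33.0% of all genes. Up to rank 20000 it was 48.1%, beside 53.1%. The median best rank of the 104 genes was 12515, against 10104.5 for all genes with a region. The median flanks of the same sets were 3403 and 4564 bp. Best ranks were not weighted for flank length, and its part in the difference was not tested.

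The sequences at 3 of the strongest col regions are shown because these regions are described next, by rank or by the RNA gene they hold: 201 bases centred on each summit, on the plus strand of ce11, read from the RefSeq WBcel235 genome. Capitals mark matches on either strand to the 5 words searched: the GAGA repeat GAGAGA, the Hox with Pbx word TGATNNAT, the GATA factor word TGATAA, the homeodomain core TAATTA and the E-box CACGTG. A match to TGATAA can overlap one to TGATNNAT. The first lies beside col-36 at chrII:7169886-7170086, the second beside col-185 at chrX:13514562-13514762, and the last beside col-175 at chrX:9237754-9237954.
col-36: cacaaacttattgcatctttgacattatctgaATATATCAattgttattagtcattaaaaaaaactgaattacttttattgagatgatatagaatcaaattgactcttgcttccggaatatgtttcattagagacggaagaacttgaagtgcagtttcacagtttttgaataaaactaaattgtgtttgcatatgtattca
col-185: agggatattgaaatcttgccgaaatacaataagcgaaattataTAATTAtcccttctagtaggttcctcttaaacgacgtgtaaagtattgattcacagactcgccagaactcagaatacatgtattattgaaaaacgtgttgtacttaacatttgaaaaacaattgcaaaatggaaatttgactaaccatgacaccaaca
col-175: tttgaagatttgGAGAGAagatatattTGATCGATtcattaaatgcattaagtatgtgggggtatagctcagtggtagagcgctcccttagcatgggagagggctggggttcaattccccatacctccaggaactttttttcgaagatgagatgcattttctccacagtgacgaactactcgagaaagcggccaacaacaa
The col-36 window holds 1 match to TGATNNAT, read there as ATATATCA on the opposite strand. The col-185 window holds 1 match to TAATTA. The col-175 window spans a tRNA gene, with GAGAGA and TGATCGAT before it.

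By the worse of its 2 replicate ranks, the strongest col region was the one beside col-36. It lay at chrII:7169831-7170140, with a signal of 36.6 and rank 560 on the list from both replicates. Its rank was 438 in replicate 1 and 1186 in replicate 2. The summit stood 1174 bp upstream of the col-36 5′ end, but inside coding sequence of dyf-13, a gene of ciliary transport, whose own 5′ end was 1318 bp away. Col-181 had the lowest rank number of the family, 548, at chrX:12106208-12106517 (signal 36.7), with ranks 788 and 3664 in replicates 1 and 2. That summit was 1217 bp downstream of the col-181 5′ end in intergenic sequence, 144 bp from a tRNA gene. Both regions fell short of the lowest signal on the authors' optimal list, which was 42.4.

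The other 2 regions at rank 5000 or stronger in both replicates were farther from their col gene. The col-185 region (chrX:13514507-13514816, signal 31.7, rank 1156) had ranks 2112 and 3285, and its summit lay 3565 bp upstream of col-185 in intergenic sequence, with the next 5′ end, that of the G1 kinase gene cdk-4, at 4249 bp. The col-61 region (chrI:7199382-7199691, signal 29.4, rank 1796) had ranks 2727 and 4667 and lay 3996 bp downstream of the col-61 5′ end. The next gene there, at 5617 bp, was hlh-2, which encodes an E-type helix-loop-helix protein. These 4 genes are 2.56% of the family (interval 0.703 to 6.43), beside 3.96% of all genes, and 4.62 would be the number at the rates of like flanks.

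The remaining regions of the strongest 2000 were uneven between the replicates. The col-94 region (signal 33.3, rank 885) ranked 251 in replicate 1 and 5476 in replicate 2, just outside the strongest 5000. It lies in an intron of dhc-4, a dynein heavy chain gene. A second col-94 region overlapped it, at rank 4665, and matched the same replicate 1 region. The col-91 region (chrIII:8261937-8262246, signal 30.2, rank 1534) ranked 524 in replicate 2 and overlapped no region of replicate 1. Its summit was in coding sequence of ncr-2, a gene of the Niemann-Pick type C1 family.

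**Figure D2:**
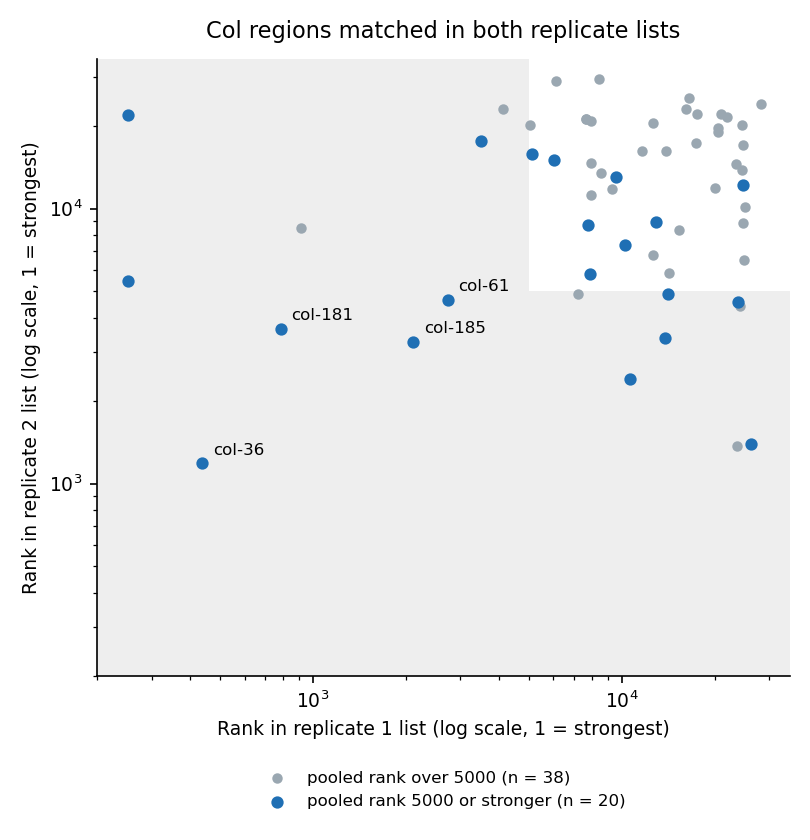
Ranks in the replicate 1 list (horizontal) and the replicate 2 list (vertical), both on log scales with 1 as the strongest, for the 58 col regions matched in both lists; blue points are the 20 with rank 5000 or stronger on the list from both replicates, and shading marks rank 5000 or stronger in at least 1 replicate. The 4 labelled regions, col-36, col-181, col-185 and col-61, are the points at rank 5000 or stronger on both axes.

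Of the 23 col regions among the strongest 5000, which belong to 20 genes, 9 also ranked 5000 or stronger in replicate 1. In replicate 2 it was 10, and 8 ranked so in neither. The 9 include both col-94 regions, which matched the same replicate 1 region. The median rank of the 23 was 6912 over the 22 matched in replicate 1 and 5476 over the 21 matched in replicate 2. These counts and medians were not set beside those of all assigned regions of that rank, so they describe the col regions alone. Over all 166 col regions, 58 overlapped a region of both replicate lists, 44 of replicate 1 alone, 50 of replicate 2 alone and 14 of neither. The share on both lists was 34.9% for col regions and 34.97% for all assigned regions. Across the 58 regions matched in both, the replicate ranks had a Spearman rho of 0.0325, beside 0.163 across the 9729 matched regions of all genes. These points share their 2 libraries and were selected by joint signal, so the coefficients describe the lists only.

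When each replicate's own list was assigned to genes, 18 col genes had a region within rank 5000 in replicate 1 (11.5%, interval 6.98 to 17.6), beside 18.7% of all genes. In replicate 2 it was 24 (15.4%, interval 10.1 to 22.02), beside 19% of all genes. Like flanks gave 23.7 and 24.1. The 5 col genes on both were col-36, col-181, col-185, col-61 and col-174, which is 27.8% of the replicate 1 genes and 20.8% of the replicate 2 genes. Over all genes those 2 shares were 39.2% and 38.6%. For col-174 the replicates picked different regions, 2843 and 1075 bp upstream.

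Strong col regions were more often inside a neighbouring gene than strong regions in general, and their distances to the 5′ end could not be told apart from those of other regions. Among the 23 strongest, 16 had the summit more than 1000 bp from the col 5′ end (69.6%, interval 47.1 to 86.8, beside 55.3%), and the median distance was 1217 bp, against 1156 bp over the 4623 assigned regions of that rank. Promoter-proximal here means a summit no more than 1000 bp before or 200 bp after the 5′ end, and 5 of the 23 were (21.7%, interval 7.46 to 43.7, beside 29.1%). Of these summits 10 were inside another coding gene (43.5%, interval 23.2 to 65.5), beside 13.6% of the assigned regions of that rank. The col gene itself held 6 (26.1%, beside 47.96%), and 7 were in no coding gene (30.4%, beside 38.4%). Gene length differs between the sets (median span 1220 bp for col genes, 2027 bp for all genes), and its part in this was not tested.

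The 5 col genes with a strong promoter-proximal region were 3.21% of the family (interval 1.05 to 7.32), beside 6.49% of all genes. At the rates of like flanks the number was 9.05. At col-149 the summit (chrV:10292648-10292957, signal 26.8, rank 3004) was 66 bp into the gene, with rank 1393 in replicate 2 and 26210 in replicate 1. The col-63 region (chrI:8245257-8245566, rank 3349) was 449 bp upstream, with ranks 14123 and 4887. At col-55 the summit (chrI:6199523-6199832, rank 3858) stood 5 bp from the 5′ end, ranked 696 in replicate 1 and had no counterpart in replicate 2. The col-127 region (chrIV:11267004-11267313, rank 4220) ranked 1045 in replicate 1, had no counterpart in replicate 2, and lay in coding sequence of the nuclear receptor gene nhr-7. The col-87 region (rank 4767) ranked 24631 and 12164. None of these 5 was at rank 5000 or stronger in both replicates.

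Over all ranks, the interval of the promoter-proximal share of col regions just held that of all assigned regions. Of the 166 regions, 56 were promoter-proximal (33.7%, interval 26.6 to 41.5), beside 27.1% of all assigned regions. They belonged to 50 genes, which is 32.1% of the family (interval 24.8 to 39.99), beside 31.9% of all genes. The median distance to the 5′ end was 1046 bp, against 1143 bp. Fewer col summits were in introns (18.7%, interval 13.1 to 25.4, beside 31.1%). The col genes have a median of 1 intron and a span of 1220 bp, where all genes have 4 introns and 2027 bp. In the bin from 1000 to 1500 bp downstream, where the end of a typical col gene lies, 22 regions fell (13.3%, beside 9.08%). The bin from 1500 to 1000 bp upstream held 19 (11.4%, beside 6.51%). Neither bin was given an interval, and the differences were not tested.

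**Figure D3:**
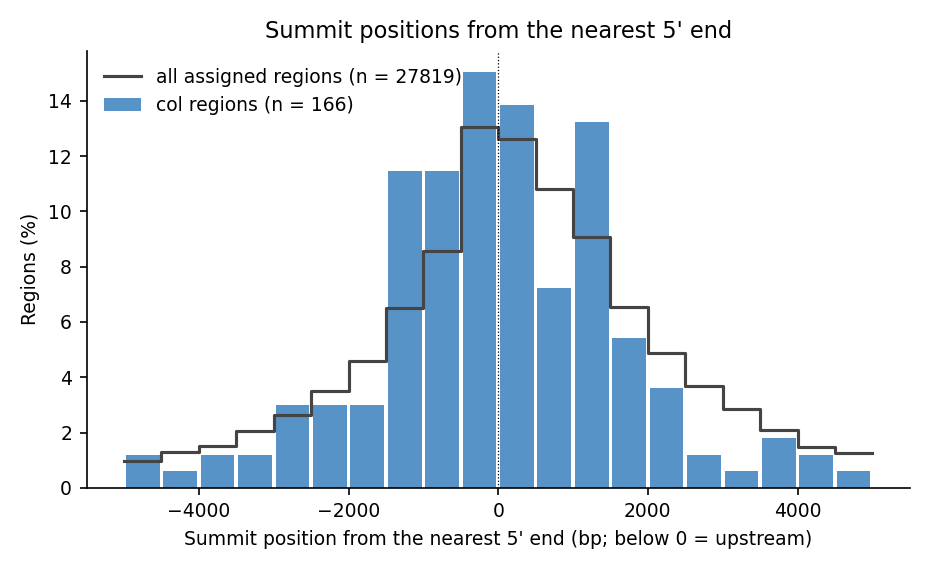
Position of the summit from the nearest 5′ end along the gene (horizontal axis, bp, below 0 is upstream) in bins of 500 bp, as a share of regions (vertical axis, %); bars are the 166 col regions and the line all 27819 assigned regions. Both are highest within 500 bp of the 5′ end, and the col bars stand above the line in each bin from 1500 bp upstream to 500 bp downstream and from 1000 to 1500 bp downstream.

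Over all 166 col summits, 46 were inside a neighbouring coding gene (27.7%, interval 21.1 to 35.2), beside 13.97% of all assigned regions. The col gene itself held 53 (31.9%, beside 50.7%), and 67 were in no coding gene (40.4%, beside 35.4%). A noncoding gene lay within 100 bp of 14 summits (8.43%, beside 8.82%) and of 3 of the 23 strongest (13.04%, beside 10.97%). Among these 3 was the tRNA gene under the col-175 summit (chrX:9237699-9238008, rank 3214, ranks 7789 and 8726). Another gene's 5′ end lay within 1000 bp of 9 summits (5.42%, beside 5.28%).

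The gene with the most regions was col-99, which encodes a transmembrane collagen. It had 6 regions over a gene of 9946 bp on chromosome IV with a flank of 9996 bp. Its strongest (signal 27.4, rank 2644) was in its own intron, with ranks 3504 and 17644. The next (chrIV:149201-149510, rank 3334), 1437 bp upstream, ranked 10270 and 7356. Both held a match to TGATNNAT within 100 bp of the summit. The genes with 4 regions were col-19 and col-138, and their best ranks were 13024 and 6494.

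The genes chosen by name (col-10, col-12, col-13, col-19 and col-99) had no region within rank 5000 apart from col-99. For col-19, an adult cuticle collagen gene controlled by the heterochronic factor LIN-29, the promoter region (chrX:421574-421883, signal 18, rank 18302) was 22 bp from the 5′ end, with rank 1770 in replicate 2 and no counterpart in replicate 1. For col-10 the region at chrV:9165347-9165656 (signal 22.9, rank 6947) was 195 bp upstream, with rank 2446 in replicate 2 and again no counterpart in replicate 1. It lies in intergenic sequence directly before the gene, and its 201 bases (chrV:9165402-9165602, plus strand, col-10 itself on the minus strand) are shown because this is the promoter of a gene chosen by name; they carry 1 TGATAA, the GATA-type word.
col-10: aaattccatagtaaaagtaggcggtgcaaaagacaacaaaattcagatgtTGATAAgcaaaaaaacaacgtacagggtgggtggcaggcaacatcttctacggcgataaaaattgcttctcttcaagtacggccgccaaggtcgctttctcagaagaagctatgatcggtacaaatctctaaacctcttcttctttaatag
For col-13 the only region had rank 16881 (ranks 28272 and 23950), and its neighbour col-12 had none. Just outside rank 5000 were col-180 (rank 5019, ranks 4111 and 23012), col-158 (rank 5028, rank 3357 in replicate 1) and col-80 (rank 5075, ranks 911 and 8469).

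The 5 words were about as frequent at col regions as at regions in general. GAGAGA was within 100 bp of 23 of the 166 summits (13.9%, interval 8.99 to 20.1), beside 13.1% of all assigned regions. TGATNNAT was at 26 (15.7%, beside 17.04%), TGATAA at 28 (16.9%, beside 19.1%), TAATTA at 20 (12.05%, beside 9.20%) and CACGTG at 6 (3.61%, beside 3.56%). All 5 intervals held the value for all assigned regions. On the lists of single replicates TAATTA was at 6.80% in replicate 1 and 8.02% in replicate 2, both below the 12.05% on the list from both. CACGTG was at 1.36% and 6.42%, both inside the interval of its 3.61% (1.34 to 7.70). Among the 23 strongest, TGATNNAT was at 8 (34.8%, interval 16.4 to 57.3), beside 18.1% of the assigned regions of that rank. The 8 were at col-36, col-115, col-121, col-149, col-175, col-127 and both regions of col-99. In the strongest 5000 of each replicate alone the word was at 5 of 18 col regions in replicate 1 (27.8%, beside 17.5%) and at 3 of 26 in replicate 2 (11.5%, beside 18.2%), so the share was above that of all regions in replicate 1 and below it in replicate 2. Of the other words at the 23, GAGAGA was at 4 (17.4%, beside 20.1%), TGATAA at 2 (8.70%, beside 17.02%) and TAATTA at 1 (4.35%, beside 8.15%). CACGTG was at 0 (exact interval up to 14.8%, floor of 3 counts 13.04%), beside 3.83%. The interval of each of these words held the share of all assigned regions of that rank. Within 50 bp of the summit, TGATNNAT was at 2 of the 23 (8.70%), beside 9.17% of the assigned regions of that rank.

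**Figure D4:**
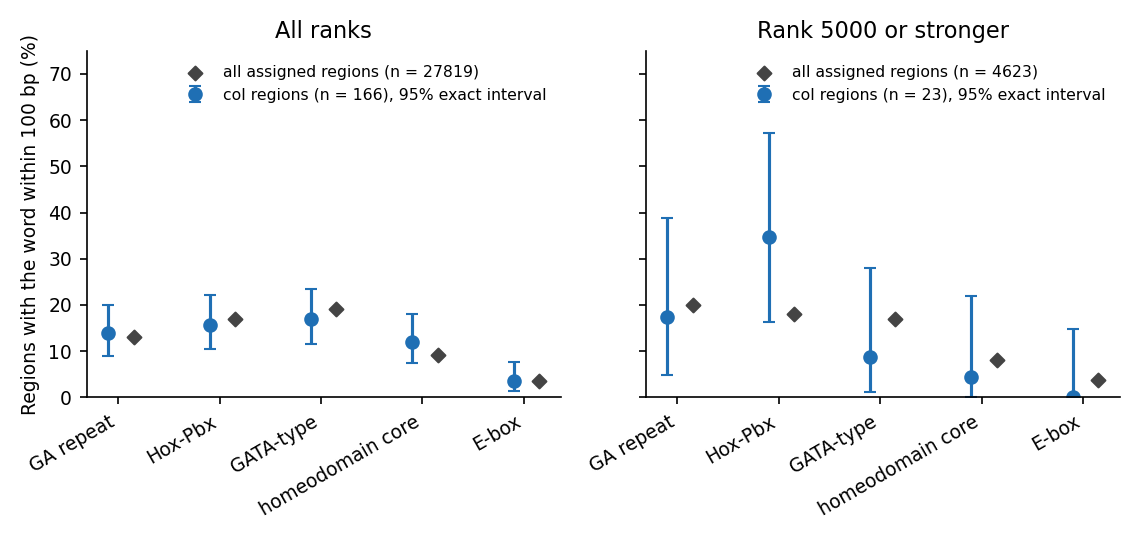
Share of regions (vertical axis, %) with each word (GA repeat GAGAGA, Hox-Pbx TGATNNAT, GATA-type TGATAA, homeodomain core TAATTA, E-box CACGTG) within 100 bp of the summit, for all ranks (left) and for rank 5000 or stronger (right); circles with 95% exact intervals are col regions and diamonds all assigned regions. On the left each interval spans the diamond; on the right the Hox-Pbx word TGATNNAT stands at 34.8% with an interval from 16.4% to 57.3%, beside 18.1%.

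Shares of col genes with a region are given by chromosome without intervals, and differences between chromosomes were not tested. On X 22 of 27 col genes had one (81.5%), beside 81.3% of all X genes, and on II 20 of 24 (83.3%, beside 63.9%). The lowest shares were on III, with 6 of 12 (50%, beside 62.8%), and on V, with 17 of 31 (54.8%, beside 64.98%). For the strongest 5000 regions X had 4 col genes (14.8%), where all X genes were at 29.7%. On the autosomes it was 16 of 129 (12.4%, beside 16.98%). Col genes that had another col 5′ end within 10000 bp were 50, of which 27 had a region (54%) and 4 a strong one (8%). Of the other 106, 77 had a region (72.6%) and 16 a strong one (15.1%). The median flank was 2491.5 bp in the first class and 3366 bp in the second, and its part in the difference was not tested.

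**Figure D5:**
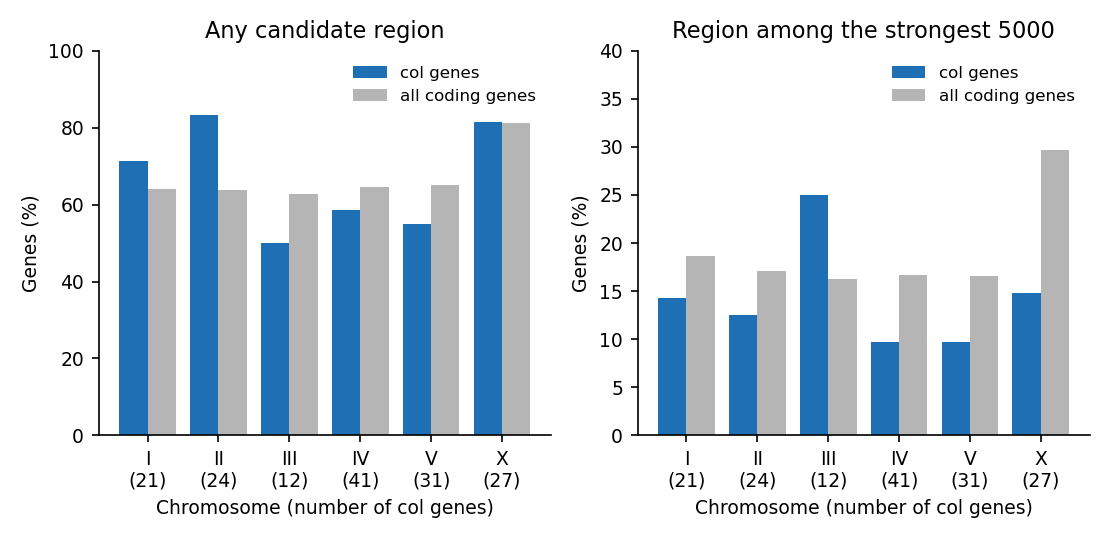
Share of genes (vertical axes, %) with any candidate region (left) and with one among the strongest 5000 (right) by chromosome, for col genes (blue bars, numbers of genes in brackets) and all coding genes (grey bars). On X the bars are level for any region (81.5% and 81.3%). For strong regions they are 14.8% (4 of 27 col genes) and 29.7%, without intervals or weighting for flank length.

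Repeated sequence was counted around 5′ ends as the share of 32-base words found elsewhere in the genome. Over 20% of the words were repeated at 8 of the 156 col genes (5.13%), beside 8.09% of all genes. The most repeated were col-3 and col-117, at 54.4% each. Of these 8 genes 5 had no region and 3 had one, where 66.5% of all genes had one. None of the 8 had a region among the strongest 5000, beside 18.7% of all genes. The shares for repeated genes outside the family are not given here, and 8 genes are too few to read a difference from.

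Other genes of the cuticle were taken from lists that name each role, and their counts stand beside 66.5% of all genes with any region and 18.7% with one among the strongest 5000. Of the 6 furrow collagen genes, which encode the collagens of the circumferential furrows, 4 had a region and 2 one among the strongest 5000. The strongest was at dpy-3 (rank 1362, ranks 491 and 2802, 3526 bp away), followed by dpy-7 (rank 4687, ranks 21320 and 8004). Of the 14 other cuticle collagen genes named by phenotype, 12 had a region and 4 a strong one: rol-6 (rank 1987, ranks 2858 and 3261), rol-8 (rank 2412), dpy-14 (rank 2592) and bli-1 (rank 4948). Summits at these 4 were between 1442 and 2352 bp from the 5′ end.

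Of the 11 genes for collagen processing and cross-linking, 10 had a region and 4 a strong one (all genes 66.5% and 18.7%). The strongest was at bli-3, a dual oxidase gene for tyrosine cross-links (rank 274, ranks 393 and 4247, 3064 bp away), which is thus among the authors' optimal peaks. Next came phy-2, a prolyl 4-hydroxylase gene (rank 775, ranks 4609 and 3662, 148 bp from the 5′ end), pdi-2, a protein disulphide isomerase gene (rank 1577, ranks 7406 and 1453), and dpy-31, a procollagen C-proteinase gene (rank 3767, rank 383 in replicate 1 alone). The 4 collagen genes outside the cuticle all had a region, and 2 were strong in both replicates, beside 3.96% of all genes. These were cle-1, a type XVIII collagen gene (rank 483, ranks 1145 and 3482), and let-2, a type IV collagen gene of basement membranes (rank 1390, ranks 3548 and 3451).

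All 7 epidermal and moulting regulators had a region and 5 had a strong one, beside 66.5% and 18.7% of all genes. The highest were lin-29 (rank 1117, ranks 1095 and 17106), elt-1, a GATA factor gene of epidermal fate (rank 1169, rank 389 in replicate 1 alone), and nhr-23, a nuclear receptor gene of moulting (rank 1251, ranks 1108 and 8775). None of the 7 was strong in both replicates, beside 3.96% of all genes. Flank length was not standardised for these short lists, and their shares were not tested against that of the col genes.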

How the data were processed

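The authors deposited region lists in narrowPeak form on ce11, per the labels and the text files beside each library. Candidate lists were derived from each replicate's alignments or from both, and the optimal list from all 3. The lists are named, by the authors, as input for and as thresholded by IDR (irreproducible discovery rate); no source used here gives its threshold, the aligner or the caller. The deposited signal value per region has no stated normalization and served only for ranks within 1 list. Regions were 330, 300 and 310 bp wide in replicate 1, replicate 2 and both. Lists on ce10 were not used, since the gene models are on WBcel235.

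Each region of the list from both replicates was matched to the replicate region of largest overlap (at least 1 bp). Flank length is the sequence within 5000 bp of a gene's 5′ ends that is nearest to it. Shares were weighted over 10 equal-number bins of flank length. Words were searched within 100 bp of summits. No test was run. Assignment, matching and weighting were checked on made-up regions with known answers.

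The members and lists were chosen with earlier results of these data known. Genes named are those at the 25 strongest col regions, strong in both replicates, with the most regions or just outside rank 5000, col-10, col-12, col-13, col-19 and col-99, and up to 3 per other list. Not every one of the 25 is described. Members named for having no region, col-3, col-17, col-117, col-138, col-163 and col-174, and the fourth genes of 2 lists, were chosen after their values were seen. The planned protein check used translated gene models. Alternatives covered the assignment limit, 5′ ends, rank, overlap, bins, windows and each replicate alone. Python 3.11.15, NumPy 2.4.6, pandas 2.3.3, SciPy 1.17.1 and matplotlib 3.10.9 were used. Some sequences are not reported here.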

Additional observations from a re-analysis of the deposited data

How the results depend on the processing

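Counts over the family held within 1.5 times of the reported values under most alternatives, the flank weighting included, with 5 bins (and 20 for strong regions), X apart, other limits, 1 end per gene or either replicate. The list of replicate 1 alone gave 91 col genes with a region (58.3%, interval 50.2 to 66.16), beside 66.16% of all genes. Like flanks gave 95.9. The list of replicate 2 alone gave 107 (68.6%, beside 67.1%), and like flanks 98.3. Genes with a strong region were 18 in replicate 1 (11.5%, beside 18.7%) and 24 in replicate 2 (15.4%, beside 19%). Promoter-proximal shares of col regions were 33.3% in replicate 1 (beside 27.3% of all assigned regions) and 29.4% in replicate 2 (beside 26.4%). Values moved where the definition was narrower and, for TAATTA and the strong TGATNNAT share, with 1 replicate's list. With narrower definitions, 46 col genes had a region among the strongest 10000 (29.5%, beside 33.0% of all genes). Among the strongest 2000 it was 6 (3.85%, beside 8.13%), and 1 was within rank 2000 in both replicates, beside 1.75% of all genes. With a limit of 2000 bp, 2 col genes were strong in both replicates, beside 2.91% of all genes. At that limit 41.8% of col regions were promoter-proximal, beside 37.8% of all assigned regions. With a window of 500 bp upstream to 100 bp downstream 18.7% were (15.8% of all assigned regions). Within 50 bp of the summit GAGAGA was at 4.82% of col regions, TGATNNAT at 8.43%, TGATAA at 9.64%, TAATTA at 6.02% and CACGTG at 2.41%. Across the replicates' own lists GAGAGA ranged from 10.7% to 12.2%, TGATNNAT from 12.8% to 18.4%, TGATAA from 14.4% to 19.05%, TAATTA from 6.80% to 8.02% and CACGTG from 1.36% to 6.42%. TGATNNAT at the strongest col regions went from 34.8% to 8.70% within 50 bp and to 11.5% in replicate 2 alone (27.8% in replicate 1), an alternative added after seeing the data, as were the replicate lists for that word, the flank weighting apart on X, at other limits, with 1 end per gene and by replicate, and leaving out repeated genes. No paired analysis was possible because there is 1 group. The unknown depth and the fixed list length limit what an absent or low-ranked region shows.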
